A study of Mus musculus with 3 samples.

Results

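The genes described here encode the secreted and membrane-bound proteases that cut the extracellular matrix, and the proteins that block them. They were taken as every non-control probe whose gene name in the scanner files was Mmp, Adamts or Timp followed by a number and at most 1 letter, with the Adamtsl genes, which lack the protease domain, left out. That gave 75 probes for 43 genes, of 27513 genes with a value on all 3 arrays: 21 Mmp, 18 Adamts and 4 Timp genes.

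Each of 3 samples of mouse cells was hybridised as Cy3-labelled total RNA to 1 single-colour Agilent array. One sample was mouse embryonic fibroblasts (MEF), the mixed adherent cells grown out of embryos, which the series' design calls p53 wild type. Another was MEF labelled p53-null, lacking the tumour suppressor encoded by Trp53, and the third was embryonic stem (ES) cells, for which the labels give no p53 genotype. By their titles all 3 carry Nanog-GFP, a fluorescent reporter of the pluripotency gene Nanog, and all are described as an origin of induced pluripotent stem cells. The labels used here give no strain, embryo age, sex or passage. The series' design sets each of the other samples against MEF. Both comparisons use the same MEF array, and with 1 array per group there is no replicate, no test and no p-value. Errors printed as ± are the scanner software's error model, which covers the measurement of a spot and not the spread between cultures.

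Matrix metalloproteinases (Mmp) are zinc proteases made as inactive precursors. Collagenases cut fibrillar collagen, gelatinases cut the denatured chains and basement membrane collagen, stromelysins cut many other matrix proteins and activate further precursors, and membrane-type enzymes act at the cell surface. Adamts enzymes are secreted relatives with thrombospondin repeats that cut proteoglycans such as aggrecan and versican or trim procollagen. Timp proteins bind the active site of these proteases one to one, and fibroblasts are a major source of both the enzymes and the inhibitors.

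Each value is the signal of a 60-base probe, and what a value stands for depends on the stretch of transcript that the probe matches. The first 30 bases of the probes on which the main results turn are given, as read from the array design files. The Mmp13 probe lies on chr9:7282762-7282821 and the Timp2 probe on chr11:118117922-118117981 of the mouse build mm8. The 3 Adamts20 probes, the 2 Adamts8 probes with signal and the 3 Adamts9 probes are shown because probes of 1 gene gave like or unlike values. Which exon each probe matches was not determined here.
Mmp13: tcattactcaaggctatgcacactggtaga
Mmp2: gttcttcaacatctatgacctttttatggc
Timp2: ccgtgagcgttcttgtgccgtgttgatgcc
Adamts8, brighter probe: tgttggcagtgaacgccaaagcaagctcca
Adamts8, dimmer probe: caataatcaatctacctcacagcggggaaa
Adamts20, probe designed on AK090358: atggattaggtggtgttccctagaaatgac
Adamts20, probe designed on NM_177431: ccacagaagattacatactgcactaagatc
Adamts20, further probe designed on NM_177431: ggctgtgatcacgtgttaaactccaaggcc
Adamts9, probe designed on BC068142: tcagcatactcagagaacgacaggagatcg
Adamts9, probe designed on AK007436: tgcagattcttcctatgtacactgctttct
Adamts9, probe designed on AK030699: ttgacacctaagaaaattctcatagttgca

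The array labelled p53-null was checked first on Trp53. One Trp53 probe read 56.2 on the p53-null array, 4900.1 on the ES array and 1304 on the MEF array, and the other read 260.5, 304 and 572. The first was 29.1-fold lower and the second 2.76-fold lower on the p53-null array than on the MEF array after scaling. What the null allele deletes is not stated in the labels. The p53-null array was printed on a slide and scanned in a session of its own, while the ES and MEF arrays shared both. Xist read 7437 on the p53-null array and 2.78 on the MEF array, while the Y-linked gene Eif2s3y read 4.07 and 1236. Slide, scan, embryo sex and p53 genotype therefore cannot be told apart in the p53-null comparison. Of 43379 non-control spots per array, 26198 on the p53-null, 27954 on the ES and 26462 on the MEF array were well above background. Signals are given as deposited, in arbitrary units, and differences as log2 after subtracting each array's 75th percentile of signal, which was 1039.96 on the p53-null, 834 on the ES and 829 on the MEF array. A probe's brightness depends on its sequence, so signals are compared between arrays for 1 probe and not between genes. The sums over marker lists given below add probes of unlike brightness, so the brightest probes weigh most in them.

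Most of the family was detectable in fibroblasts. Of the 43 genes, 32 were well above background on the p53-null array, 32 on the MEF array and 29 on the ES array. On at least 1 of the 2 fibroblast arrays it was 33 of the 43, beside 17383 of all 27513 genes. On at least 1 of the ES and MEF arrays it was 35, beside 18728 of all genes. On all 3 arrays 25 were above background, and 7 were on none. The 7 were Mmp1a and Mmp8, both collagenases, Mmp7, the matrilysin, Mmp12, the macrophage metalloelastase, Mmp20, the tooth enamel protease enamelysin, Mmp21, and Adamts13, the plasma protease of von Willebrand factor. Signals for these 7 lay between 2.31 (Mmp8 on the ES array) and 7.38 (Mmp21 on the ES array). A gene at this level cannot be told from absence by these arrays. Another 6 genes were above background on both fibroblast arrays but not on the ES array. On the ES array alone it was 3 (Mmp9, Mmp25 and Adamts19), and on the p53-null array alone 1 (Adamts18). These patterns over the 3 arrays were counted for the members only. Whether they differ from those of all genes is therefore not known. All 4 Timp genes were above background everywhere.

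**Figure D1:**
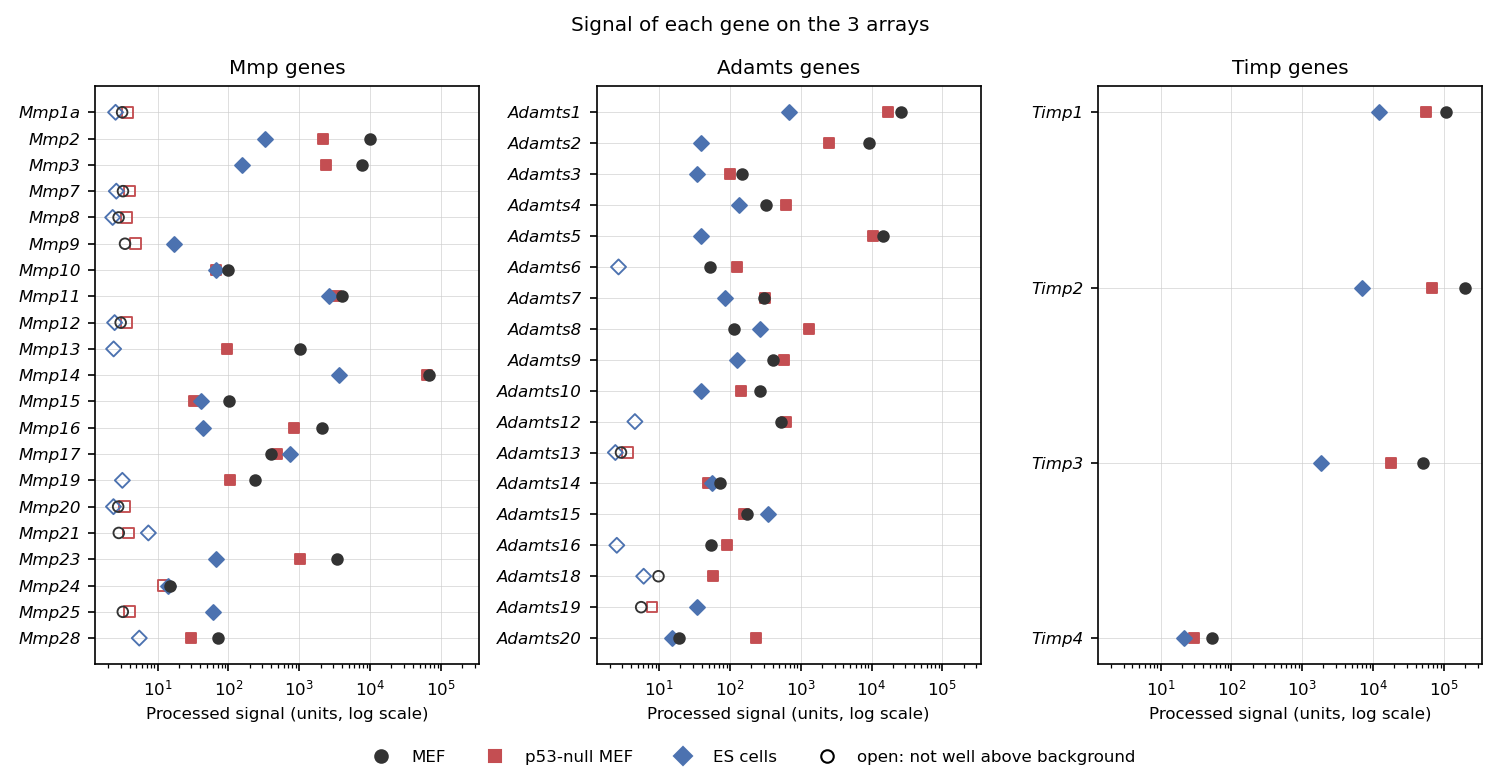
Processed signal (arbitrary units, log axis) of each Mmp, Adamts and Timp gene on the MEF (black circles), p53-null MEF (red squares) and ES cell (blue diamonds) arrays, 1 array each, with open symbols where the probe was not well above background. Timp1, Timp2 and Timp3 are ordered MEF, p53-null MEF, ES cells, and Adamts8 is highest on the p53-null array, at 1289 against 113 on the MEF array.

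In p53-null MEF the Mmp and Timp genes were mostly lower than in MEF under every scaling but that on spike-in probes, and the Adamts genes were spread on both sides. Of 33 members above background on at least 1 of the 2 arrays, 14 lay 2-fold or more below MEF (16.6% of all 17383 genes measured did) and 3 lay 2-fold or more above (18.6% of all genes). In either direction it was 17 members, against 35.2% of all genes. The median log2 difference was -0.89 over the 33 members and 0.03 over all genes measured. It was -1.59 for the 13 measured Mmp genes, with 8 lower and 0 higher, but turned to 0.44 when the arrays were scaled on spike-in probes. With normexp background correction it was -1.05, and over all Mmp genes, dim ones included, -0.57. For the 4 Timp genes, all lower, the median was -1.54, turning to 0.57 with spike-in scaling. For the 16 measured Adamts genes, 2 lower and 3 higher, it was -0.19, turning to 0.14 with no scaling and to 1.93 with spike-in scaling. Those scalings moved the median of all genes too, to 0.36 with none and to 2.14 with spike-ins. Relative to all genes the Mmp median was -1.62, and -1.70 on the spike-in scale, and the Timp median was -1.57 on both. Such scaling shifts all genes of an array by the same amount. These relative medians could therefore hardly change and are no check on the scaling. Fewer cells of a type and less RNA per cell cannot be told apart in such bulk RNA.

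The largest difference among the Mmp genes was that of Mmp13, the main interstitial collagenase of the mouse. Its signal was 1027 on the MEF array, 94.0 on the p53-null array and 2.38 on the ES array, where it was not above background. All 3 values are far apart, and the p53-null signal was 13.7-fold lower than that of MEF (log2 difference -3.78 ± 0.21). Mmp2, the gelatinase that fibroblasts secrete constitutively, read 10051 on the MEF, 2175 on the p53-null and 324 on the ES array. The p53-null difference was -2.54 ± 0.20, or 5.80-fold lower. Mmp9, the other gelatinase, was above background on the ES array alone. Its brighter probe, printed 10 times, read 16.9 ± 1.67 (SD over 10 spots of 1 array) there, 5.37 ± 3.0 on the p53-null array and 3.54 ± 0.90 over the 8 usable spots of the MEF array. All 10 ES spots and none of the others were well above background, and the bound from them put ES cells at least 1.36-fold above MEF, near the limit of detection.

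Among the stromelysins only Mmp3 passed 2-fold. Mmp3, stromelysin 1, read 7735 on the MEF, 2361 on the p53-null and 154 on the ES array, so p53-null MEF were 4.11-fold lower (-2.04 ± 0.20). Mmp10, stromelysin 2, read 97.3, 66.0 and 67.4 in the same order, and its p53-null difference of -0.89 ± 0.22 stayed within 2-fold. Mmp11, a stromelysin activated by furin inside the cell, read 3953, 3336 and 2615 (-0.57 ± 0.20 in p53-null MEF).

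The membrane-type enzymes were uneven. Mmp14, the membrane-type protease that activates pro-Mmp2, read 67157 on the MEF array and 64240.2 on the p53-null array, a difference of -0.39 ± 0.20. Mmp16 read 2118 and 835 (-1.67 ± 0.20), and Mmp15 read 100.1 and 32.3 (-1.96 ± 0.27). Mmp16 and Mmp15 were thus more than 2-fold lower in p53-null MEF while Mmp14 was not. Mmp17, anchored by a lipid tail, read 402 and 491 (-0.04 ± 0.20), but its dimmer probe read 187 and 96.4 (-1.29), so whether it passed 2-fold rests on the probe. Mmp24 was at the detection limit. The 3 other measured Mmp genes were all lower on the 75th percentile scale. Mmp23 read 3451 on the MEF and 1035 on the p53-null array (-2.07 ± 0.20), and Mmp19 read 239 and 106 (-1.50 ± 0.21). Mmp28, also called epilysin, read 70.3 and 29.3 (-1.59 ± 0.27), and its other probe was not above background on any array.

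All 4 inhibitors were lower in p53-null MEF, except on the spike-in scale, where their median was 0.57. Timp1 read 106798 on the MEF, 56523 on the p53-null and 12312 on the ES array. Timp2, the inhibitor that also takes part in the activation of pro-Mmp2 by Mmp14, read 196748, 68923 and 7011. Timp3, the inhibitor that stays bound to the matrix, read 51563, 17748 and 1830.4. In each of these the p53-null value lay between the other two. The p53-null differences were -1.25 ± 0.20 for Timp1, -1.84 ± 0.20 for Timp2 and -1.87 ± 0.20 for Timp3. Timp1 has 2 further probes, with differences of -1.09 and -0.67, so only its brightest and middle probes passed 2-fold. Timp4 was dim, reading 53.9 on the MEF and 29.9 on the p53-null array (-1.18 ± 0.30), a value within 1 error of the 2-fold limit.

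Among the 7 Adamts proteoglycanases 2 were higher in p53-null MEF and none was lower, counts too small to set apart from the 18.6% and 16.6% of all genes. Adamts8 read 113 on the MEF, 1289 on the p53-null and 264 on the ES array, 9.10-fold higher in p53-null than in wild-type MEF (3.19 ± 0.21). The dimmer probe of Adamts8, which ends at the base where the brighter one begins, gave 28.3, 305.1 and 77.2 and a like difference of 3.1. The remaining probe, on the opposite strand, was not above background on any array. Adamts20, a versican-cutting enzyme, read 19.4 on the MEF, 236 on the p53-null and 15.0 on the ES array through the probe designed on AK090358 (3.28 ± 0.31, 9.73-fold higher). Both Adamts20 probes designed on NM_177431 stayed between 2.37 and 4.02 on all 3 arrays, not well above background, so the difference was seen by 1 probe of 3. The other proteoglycanases were within 2-fold. Adamts1 read 26064 on the MEF and 17296 on the p53-null array (-0.92 ± 0.20), and Adamts5, the main aggrecanase of mouse cartilage, read 14361 and 10359.8 (-0.80 ± 0.20). The dimmer Adamts5 probe gave -1.82 and the dimmer Adamts1 probe -1.09, both past 2-fold. Adamts4, another aggrecanase, was on the other side of 0, at 323 and 626 (0.63 ± 0.20).

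Of the procollagen N-propeptidases, which remove the amino-terminal extension of fibrillar procollagens, Adamts2 was lower. It read 9129.8 on the MEF, 2502 on the p53-null and 38.8 on the ES array (-2.20 ± 0.20 in p53-null MEF), and its 4 probes gave differences from -3.12 to -1.17, all past 2-fold. Adamts3 (-0.90 ± 0.21) and Adamts14 (-0.89 ± 0.23) lay just inside the 2-fold limit. Adamts7 and Adamts12, which cut the cartilage protein Comp, differed by -0.30 ± 0.21 and -0.08 ± 0.20. Adamts18 was above background in p53-null MEF alone, at 57.2 against 9.79 on the MEF and 6.04 on the ES array, and was at least 3.68-fold higher than in MEF. Its second probe was not above background on any array, and with normexp background correction its difference was 0.53, within 2-fold. The same correction put Adamts20 at 1.52, and it put Adamts10 (-0.94), Mmp28 (-0.80) and Timp4 (-0.65) within 2-fold. Adamts10, which is tied to fibrillin microfibrils, was lower by its brightest probe (263 on the MEF and 145.0 on the p53-null array, -1.19 ± 0.21) and by a second probe (-1.73), while the third gave 0.23. Adamts6 (52.8 on the MEF and 126 on the p53-null array, 0.93 ± 0.23) and Adamts16 (53.6 and 91.9, 0.45 ± 0.23) stayed within 2-fold. So did Adamts9 (0.21 ± 0.20) and Adamts15 (-0.47 ± 0.21). The dimmer probes of Adamts3 and Adamts16 were not above background on any array.

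**Figure D2:**
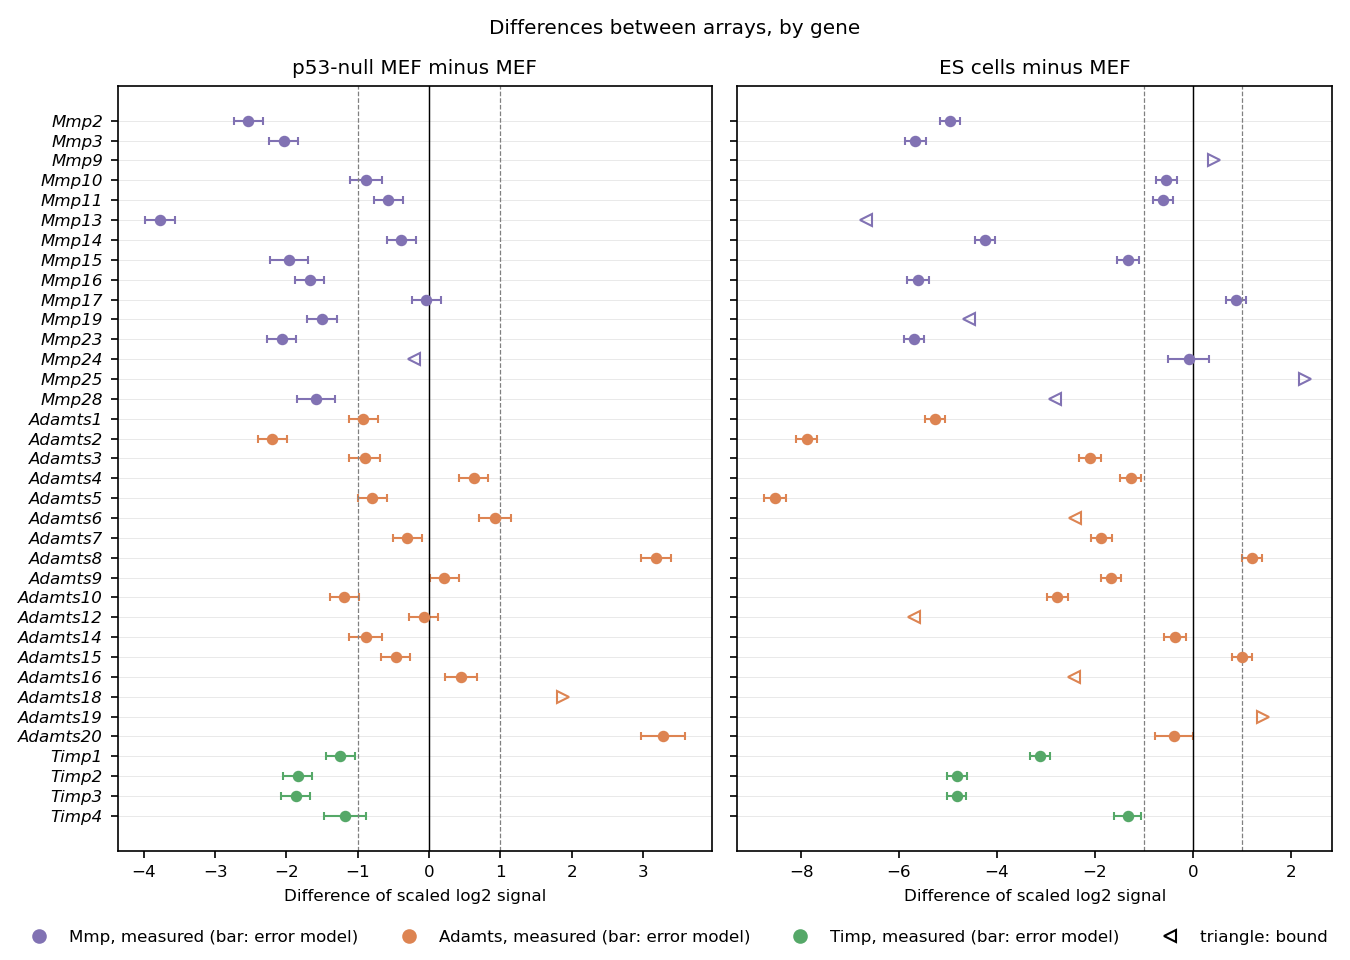
Difference of scaled log2 signal for each measured gene, p53-null MEF minus MEF on the left and ES cells minus MEF on the right (1 array per group, shared MEF array). Bars are the scanner software's error model, triangles are bounds where 1 array was not well above background, and dashed lines mark 2-fold. On the left, Mmp13 lies lowest at -3.78, and Adamts8 and Adamts20 lie highest at 3.19 and 3.28.

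ES cells had far less signal than MEF for most of the family. Of 35 members above background on at least 1 of the 2 arrays, 24 lay 2-fold or more below MEF (27.1% of all 18728 genes measured did) and 4 lay 2-fold or more above (32.7% of all genes). In either direction it was 28 members, against 59.9% of all genes. The median log2 difference was -2.40 over the 35 members, of which 9 are bounds, and 0.20 over all genes measured. It was -2.81 for 15 Mmp genes, -1.98 for 16 Adamts genes and -3.97 for the 4 Timp genes, and it was below 0 for each family under every scaling tried. With normexp background correction the Mmp and Adamts medians were -1.13 and -1.0, and over all Mmp genes, dim ones included, the median was -0.54. The fibroblast marker list gives the scale of the contrast in cell type, since all 12 of its genes were lower in ES cells. Their summed signal there, as deposited, was 1.30% of that in MEF. Among those markers, Lum was not above background in ES cells.

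Among genes above background on both arrays, the brightest probes of Adamts5 and Adamts2 showed the greatest contrast. Adamts5 read 39.2 on the ES array against 14361 on the MEF array, 369-fold lower (-8.53 ± 0.22), and Adamts2 was 237-fold lower (-7.89 ± 0.22). Their dimmer probes gave smaller differences. They were a bound of -5.11 for Adamts5 and, for Adamts2, a measured -4.82 and bounds of -3.85 and -3.11. Mmp13 was at least 102-fold lower. Adamts12 read 522 on the MEF and 4.55 on the ES array, at least 52.0-fold lower, and Mmp19 was at least 23.8-fold lower. A dimmer Adamts12 probe gave a bound of -1.60, and its remaining probe was not above background on any array. Mmp23 (-5.70 ± 0.21), Mmp3 (-5.66 ± 0.21), Mmp16 (-5.61 ± 0.22), Adamts1 (-5.26 ± 0.20), Mmp2 (-4.97 ± 0.20) and Mmp14 (-4.24 ± 0.20) were all lower but still above background in ES cells. Mmp16's second probe was a bound at -2.27.

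The inhibitors were lower as well. Timp2 and Timp3 were 28.2-fold and 28.3-fold lower in ES cells (-4.82 ± 0.20 for each), Timp1 was 8.73-fold lower (-3.13 ± 0.20), and Timp4 was 2.51-fold lower (-1.33 ± 0.27). The ES signal of Timp1 remained at 12312, Timp2 at 7011 and Timp3 at 1830.4, so these transcripts were measured well above the limit of detection in ES cells too.

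A few members went the other way. Adamts8 was 2.33-fold higher in ES cells than in MEF (1.22 ± 0.21) and its dimmer probe gave 1.44. Adamts15, a proteoglycanase, read 349 on the ES, 171 on the MEF and 156 on the p53-null array, a difference of 1.01 ± 0.21 that sits on the 2-fold limit. Mmp25, a leukocyte membrane-type enzyme, read 61.0 on the ES array and 3.21 on the MEF array, at least 4.90-fold higher. Adamts19 read 33.7 on the ES and 5.57 on the MEF array, at least 2.71-fold higher, while its dimmer detected probe gave a bound of 0.39 on the log2 scale. Mmp17 read 744 on the ES array (0.88 ± 0.20), just inside 2-fold. With normexp background correction none of the 4 higher genes passed 2-fold, at 0.92 for Adamts8, 0.76 for Adamts15, 0.88 for Mmp25 and 0.48 for Adamts19, and Adamts4 (-0.91), Adamts6 (-0.80), Adamts16 (-0.79), Mmp15 (-0.67) and Timp4 (-0.48) were then lower by less than 2-fold.

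Mmp10 and Mmp11 were within 2-fold on all 3 arrays, Mmp10 only narrowly so in p53-null MEF. In ES cells Mmp10 differed from MEF by -0.54 ± 0.21 and Mmp11 by -0.61 ± 0.20. Adamts14 (-0.36 ± 0.22), Adamts20 (-0.38 ± 0.39) and Mmp24 (-0.09 ± 0.42) were also within 2-fold, the last near background on both arrays. Of the others, Adamts10 was 6.79-fold, Adamts3 4.29-fold, Adamts7 3.64-fold, Adamts4 2.41-fold and Mmp15 2.50-fold lower, and Mmp28, Adamts6 and Adamts16 were lower by bounds of at least 7.0-fold, 5.26-fold and 5.34-fold. For Adamts10 a further probe gave 0.37, against -2.76 and -2.58 for the remaining ones.

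Adamts9 showed how far the probe can set the answer. The probe designed on BC068142 read 405 on the MEF, 589 on the p53-null and 128 on the ES array, lower in ES cells (-1.67 ± 0.21). The probe designed on AK007436 read 27.5, 84.7 and 132 in the same order, higher in ES cells (2.25) and in p53-null MEF (1.29). A probe on AK030699 read 34.6, 41.7 and 29.9 and differed by -0.22 and -0.06. Adamts9 was the only gene of 15 with several measured probes whose probes passed 2-fold in opposite directions between ES cells and MEF. In 7 of the 15, probes lay more than 1 log2 unit apart, as in 5 of 14 genes between p53-null MEF and MEF, where none was opposed.

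**Figure D3:**
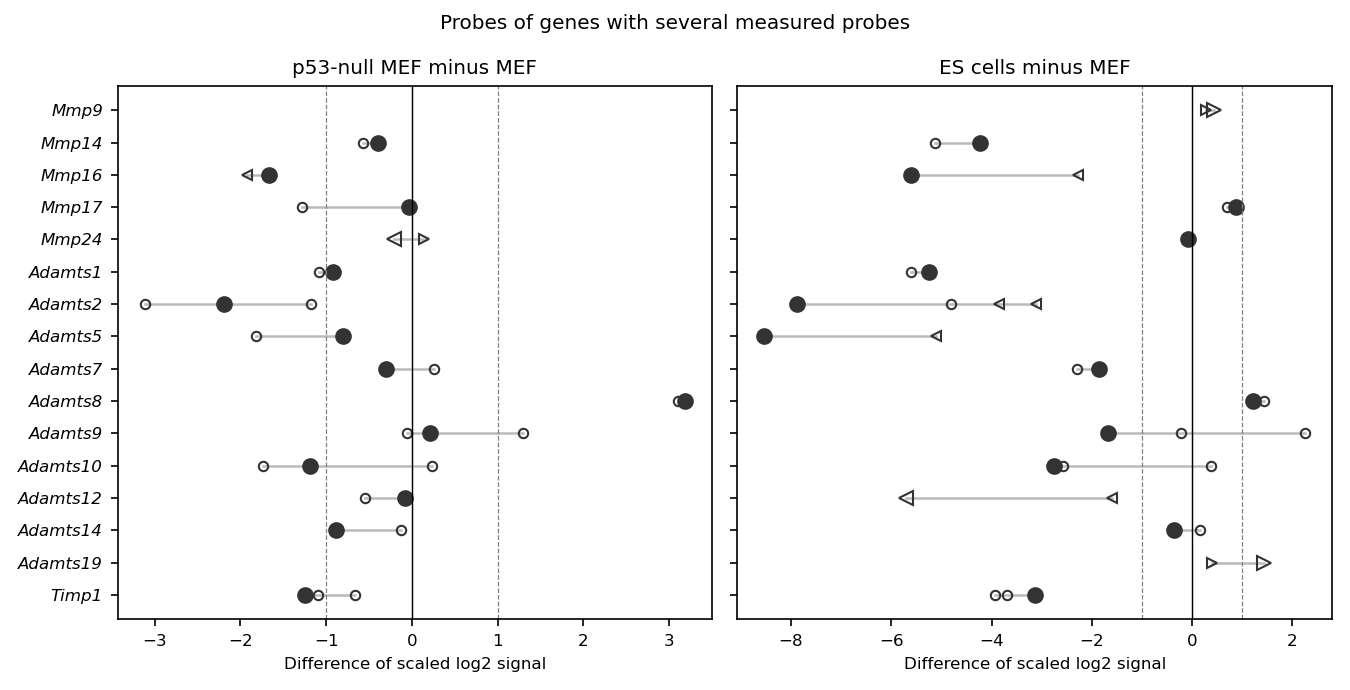
Difference of scaled log2 signal by probe for genes with several measured probes, p53-null MEF minus MEF on the left and ES cells minus MEF on the right. Large filled symbols are the brightest probe, which stands for the gene, small open circles are its other probes, triangles are bounds, and lines join the probes of a gene. The Adamts9 probes span from -1.67 to 2.25 on the right, and the Adamts8 probes lie at 3.1 and 3.19 on the left.

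On chromosome 9 of the mouse, 8 of the members lie within 414.609 kb (probes on chr9:7282762-7697370, mm8), in the order Mmp13, Mmp12, Mmp3, Mmp1a, Mmp10, Mmp8, Mmp20 and Mmp7. By RefSeq, Mmp1b lies between Mmp12 and Mmp3 and Mmp27 between Mmp8 and Mmp20, and neither was analysed here. Only 3 of the 8, Mmp13, Mmp3 and Mmp10, were above background on any array. The others, between or beyond them, stayed at background on all 3 arrays. RefSeq promoters (250 bases before to 50 after a start, GRCm38.p6) were on hand for 29 of the 43 members. The letters TGANTCA, which the Fos and Jun factors of AP-1 bind and which were searched on both strands, occurred in 7 of the 29 (24.1%) and in 8.97% of 27025 genes with a promoter. All 7 belong to this cluster, with Mmp8 the only one of these 8 without it. TATAAA occurred in 34.5% of the members' promoters and in 15.7% of all, and did not overlap TGANTCA in the stretches shown. All 8 genes of the cluster had TATAAA, and outside it only Adamts1 and Mmp21 did among the members. The last 120 bases before the start are printed for the 3 genes with signal and for Mmp12 and Mmp1a, which had none, with the motifs in capitals. The TATAAA of Mmp12 begins at 4 bases after its start, outside the stretch shown. The stretches lie on the plus strand at chr9:7272394-7272513 (Mmp13), chr9:7445702-7445821 (Mmp3), chr9:7502222-7502341 (Mmp10), chr9:7347254-7347373 (Mmp12) and chr9:7464021-7464140 (Mmp1a).
Mmp13: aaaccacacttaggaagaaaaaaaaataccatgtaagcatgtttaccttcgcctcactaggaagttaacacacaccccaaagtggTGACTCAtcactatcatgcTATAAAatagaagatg
Mmp3: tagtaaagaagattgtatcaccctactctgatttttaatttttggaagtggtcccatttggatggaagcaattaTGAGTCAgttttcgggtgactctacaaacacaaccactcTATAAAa
Mmp10: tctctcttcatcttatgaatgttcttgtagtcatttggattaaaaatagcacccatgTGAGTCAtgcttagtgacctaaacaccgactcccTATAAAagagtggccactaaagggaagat
Mmp12: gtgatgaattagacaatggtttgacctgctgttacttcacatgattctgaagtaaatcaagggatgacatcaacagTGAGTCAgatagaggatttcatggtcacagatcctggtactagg
Mmp1a: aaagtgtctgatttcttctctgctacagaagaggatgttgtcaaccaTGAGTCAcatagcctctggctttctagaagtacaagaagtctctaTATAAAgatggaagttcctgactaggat

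Counted from the annotated start, the first base of TGANTCA lay at -35 in Mmp13, -46 in Mmp3, -63 in Mmp10, -44 in Mmp12 and -73 in Mmp1a. The motif was present both in the promoter of Mmp13, which read 1027 on the MEF array, and in that of Mmp12, which read 3.0. A match of letters is a description of the sequence and not a measured binding site.

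**Figure D4:**
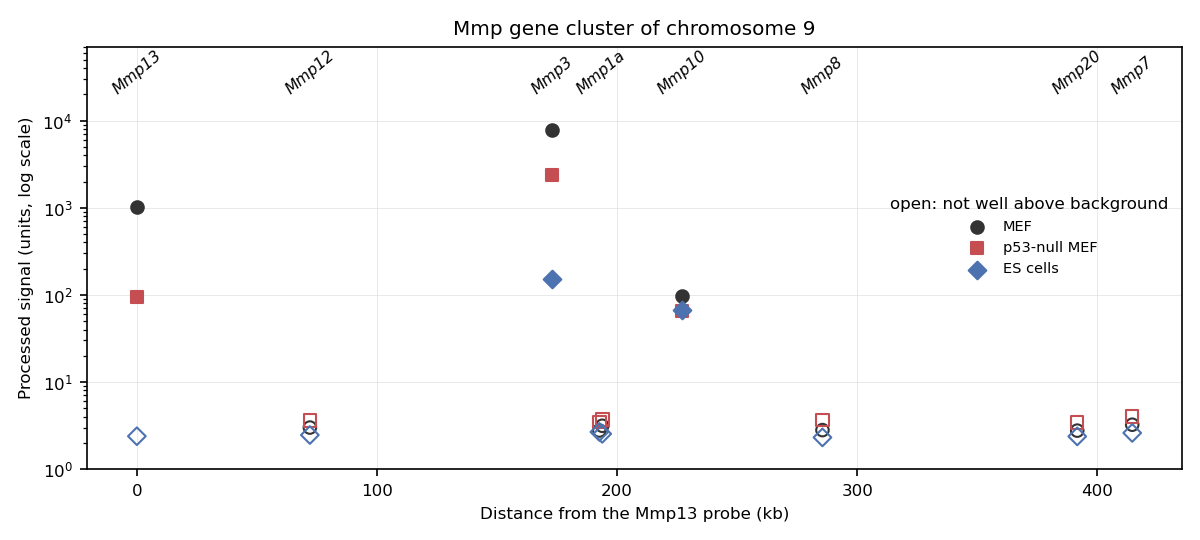
Processed signal (arbitrary units, log axis) of the 8 Mmp genes of chromosome 9 against the distance of each probe from the Mmp13 probe (kb), on the MEF, p53-null MEF and ES arrays, with open symbols where a probe was not well above background. Signal appears at Mmp13, Mmp3 and Mmp10 alone, and Mmp13 and Mmp3 are ordered MEF, p53-null MEF, ES cells.

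The wider network of matrix proteolysis was taken from a list of 48 related proteases and regulators. Between p53-null MEF and MEF, 41 were measured, 15 of them lower by 2-fold or more and 4 higher, with a median of -0.56, beside 16.6% lower and 18.6% higher among all genes. Reck, a membrane-anchored inhibitor of Mmp2, Mmp9 and Mmp14, read 2535.5 on the MEF, 607 on the p53-null and 257 on the ES array (-2.39 in p53-null MEF). For Ctsk, the cathepsin that cuts collagen in bone, p53-null MEF were 10.1-fold below MEF, and for Serpine2, a serine protease inhibitor, 57.9-fold. Lrp1, the receptor that clears Mmp and Timp complexes, was 2.91-fold lower. Among the higher genes were Adam12 (3.38-fold), Adam33 (3.88-fold) and Spock3 (at least 7.35-fold). Furin, which activates Mmp14 and many Adamts precursors, differed by 0.14. In ES cells 31 of 42 measured genes of the list were lower and 3 higher, with a median of -3.20, beside 27.1% and 32.7% among all genes. The 3 higher were Mep1b, a meprin subunit (at least 18.3-fold), Spock2 (3.62-fold) and A2m, a broad protease trap (at least 2.87-fold).

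The matrix proteins that these enzymes cut were also measured, as a list of 24 substrates. In p53-null MEF 11 lay 2-fold or more below MEF and 1 above it, with a median of -0.61, beside the same 16.6% and 18.6% of all genes. Comp was 18-fold lower, Fn1, fibronectin, was 5.35-fold lower and Dcn, decorin, was 5.76-fold lower. Of the fibrillar collagen genes on the list, Col1a1 (0.03), Col1a2 (-0.20) and Col5a1 (-0.20) were within 2-fold, while Col2a1 (-1.86), Col3a1 (-1.05) and Col5a2 (-1.89) were lower. Acan, the aggrecan core protein, was 4.15-fold higher at low signals of 163 against 31.3. In ES cells 19 of 24 substrates were lower and 3 higher, with a median of -5.11, beside 27.1% and 32.7% of all genes. The 3 higher were Acan, Ncan, the brain proteoglycan neurocan, and Vwf.

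Marker genes of other cell types moved with the p53-null comparison too. Sums of signal are given as deposited, without scaling to the 75th percentile. That percentile was 1039.96 on the p53-null and 829 on the MEF array, so scaled percentages for p53-null MEF would be lower. The sum of the 12 fibroblast markers on the p53-null array was 91.6% of that on the MEF array. After scaling their median log2 difference was -0.45. By 2-fold or more 5 of the 12 were lower and 0 higher, beside 16.6% lower and 18.6% higher among all genes. The sum of 16 macrophage markers was 685 on the p53-null, 1328 on the ES and 2703 on the MEF array, the first being 25.4% of the last. Above background were 5 on the p53-null and 11 on the MEF array. Of 12 measured, 8 of them bounds, 5 were lower by 2-fold or more, 1 higher and 6 neither. Lyz2 made up 1980.4 of the MEF sum, and Csf1r and Adgre1 were not above background on the p53-null array. On the MEF array Adgre1 (13.0), C1qa (15.2) and C1qc (15.5) were above background. Those signals lie below 16, the lowest signal well above background on the p53-null array. Cd14 differed by -0.19, and Ptprc was above background on the p53-null array alone (37.4, at least 2.41-fold higher). The sum of 12 chondrocyte and osteoblast markers was 5505 on the p53-null, 4365 on the ES and 12926 on the MEF array. In p53-null MEF it was 42.6% of the MEF sum. Of 11 measured, 7 were lower by 2-fold or more and 2 higher, beside 16.6% and 18.6% of all genes. Col2a1 and Comp held most of the sum on the MEF array, at 5977 and 3666. Matn3 (225 on the p53-null and 36.2 on the MEF array) and Acan were the 2 higher ones. Col10a1, a collagen of hypertrophic cartilage, was 465 on the MEF and 44.5 on the p53-null array. ES cell markers summed to 347 on the p53-null and 745 on the MEF array, of which Dppa5a alone made up 196 and 554. Of 10 such markers, 2 were above background on the p53-null and 4 on the MEF array, with Pou5f1 and Nanog on neither. Neutrophil markers were near background, with 0 of 7 above it on the p53-null, 1 on the ES and 2 on the MEF array. Endothelial markers summed to 839, 1291 and 544 on the p53-null, ES and MEF arrays, with 4, 6 and 5 of 8 above background. Kdr made up 646 of the p53-null and 202 of the MEF sum, and Cldn5 615 of the ES sum. Of 5 measured in p53-null MEF, 2 were higher by 2-fold or more and 1, Tek, was lower, beside 18.6% and 16.6% of all genes. Pecam1 and Cdh5 were not above background on either fibroblast array. The part that such cells play in the lower Mmp, Adamts2 and Timp signals was not tested.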

How the data were processed

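Scanner files from Agilent Feature Extraction 9.5.3.1 (protocol GE1-v5_95_Feb07, per the file headers) hold 43379 non-control spots per array. The deposited intensity used is the processed signal, background-subtracted by the scanner software per the file headers. The authors' value table holds the same intensity to within a ratio of 0.995 to 1.005, on a linear, uncentred scale, with column medians of 51.8 (p53-null MEF), 50 (ES cells) and 43.2 (MEF).

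Spots marked uneven or as outliers were left out. Signals were put on log2, centred on each array's 75th percentile and averaged over the spots of a probe. A probe counted as well above background when 50% or more of its usable spots did. The brightest probe stands for its gene, and other probes are given where they differ by over 2-fold. Smaller differences between probes, some of them in direction, are not all given. Where 1 array was not well above background the difference is a bound, taken against the probe's own signal there or, if higher, that array's lowest signal of any probe well above background (16 on the p53-null, 10.1 on the ES and 12.4 on the MEF array). Names were checked against RefSeq (GRCm38.p6) by accession for 24646 of 41174 probes, by symbol for 6118 and by synonym for 2383, with the file's name kept for 8027. The union of the 3 files' names gave 75 probes, of which 70 are named alike in all 3.

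Every member above background on an array may be named. Members and lists were chosen with earlier results of these data known. One gene of the related list is not reported here. Probe positions are those of the p53-null file (mm8). Probes printed 10 times varied by 3.68%, 3.47% and 4.49% (median SD between spots on the p53-null, ES and MEF arrays), while the error model gives 10.0%. The number of arrays limits the precision. Python 3.11.15, pandas 2.3.3, R 4.3.3 and limma 3.58.1 (normexp, quantile) were used, and the calculation was tested on simulated data.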

Additional observations from a re-analysis of the deposited data

How the results depend on the processing

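The results were recomputed under 12 alternatives of background correction, scaling, filter, probe choice and source of values. The count of members at least 2-fold lower in ES cells ran from 18 to 24, higher in ES cells from 0 to 6, lower in p53-null MEF from 1 to 15 and higher in p53-null MEF from 0 to 18. Apart from the settings named next, lower in p53-null MEF stayed between 11 and 15. Scaling on 6 spike-in probes left 1 member lower and 18 higher in p53-null MEF, with medians of 0.44 for Mmp and 0.57 for Timp genes. The higher share of all calls was then 98.3% of genes and 94.7% of members, against 52.7% and 17.6%, and 71.1% and 26.7% with no scaling. With the dimmest probe of each gene, 0 members were higher in p53-null MEF, since the 3 higher ones then had no value. In ES cells 2 were higher, and Adamts10 turned to 0.23 in p53-null MEF and 0.37 in ES cells. The count higher in ES cells was 0 with normexp correction, 2 with median scaling and 2 when both arrays had to be above background. With the mean of all probes, Adamts9 turned to 0.12 in ES cells. The cause of these changes was not tested. Single genes were followed in 11 of the alternatives, with spike-in scaling left out. Of 17 genes past 2-fold in p53-null MEF, 12 passed it in each of these 11 that gave them a value (182 values). In ES cells 17 of 28 did so (294 values). With spike-in scaling only 1 member was still lower in p53-null MEF, so the 12 did not all hold there. With the dimmest probe Adamts8, Adamts18, Adamts20 and Mmp28 had no value in the p53-null comparison. In the ES comparison Adamts3, Adamts8, Adamts12, Adamts16, Adamts19 and Mmp28 had none. Genes given as bounds had no value where both arrays had to be above background. Signals under about 16 could not be told from background on the p53-null array. No paired analysis was possible because each group has 1 array.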

Other observations

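In RefSeq, 3 of the Timp genes lie inside synapsin genes: Timp1 in Syn1, Timp3 in Syn3 and Timp4 in Syn2. Syn1 read 9380 on the MEF, 3357 on the p53-null and 5357 on the ES array, differences of -1.81 and -0.82. Syn2 was above background on the MEF array alone, at 19.5. Syn3 read 38.5 on the MEF and 14.7 on the ES array, and 17.4 on the p53-null array, where it was not above background.

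Adamts genes also stand in neighbouring pairs. Adamts1 and Adamts5 lie 67.6 kb apart by their probes on chromosome 16, and their ES differences from MEF were -5.26 and -8.53. Adamts8 and Adamts15 lie 63.2 kb apart on chromosome 9, and both were higher in ES cells than in MEF (1.22 and 1.01), while in p53-null MEF Adamts8 differed by 3.19 and Adamts15 by -0.47. The p53 half-site, searched by its consensus on both strands, occurred in the promoters of 3 of 29 members (10.3%: Adamts13, Mmp13 and Mmp24) and in 9.55% of all genes with a promoter, a share near the background.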
